A study of Mus musculus with 48 samples.

Results

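The folate one-carbon and serine enzymes are 8 genes: Mthfd1l, Mthfd1, Mthfd2, Shmt1, Shmt2, Tyms, Phgdh and Psat1. A gene was measured where at least 1 probe set, the group of short probes that reads 1 transcript on the array, carried its symbol and no other. This held for 7 of the 8 genes, and all 7 were among the 12823 genes bright enough to be tested. Both probe sets that carry Mthfd2 also carry Gsn, the actin-binding protein gelsolin, so no value is given for Mthfd2, the mitochondrial methylenetetrahydrofolate dehydrogenase. Where a gene had several probe sets, the one with the highest mean over the 48 arrays was used and the others served as a check.

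Folate carries single carbon units between molecules. The mitochondrial enzymes take a carbon from serine and release it as formate, which cytosolic enzymes load back onto folate for purine synthesis, for the methylation of dUMP to dTMP and for methionine. Cells that copy their DNA need both products, and serine can be made from a glycolytic intermediate through Phgdh and Psat1.

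Epidermal stem cells were taken from wild-type female mice of the strain C57B6/J, aged 8 weeks (young) or 102 to 116 weeks (aged). Cells were collected every 4 h from ZT0 to ZT20, from 4 mice per age and time, 1 array per mouse. ZT counts hours from the time at which, by convention, the lights come on. All values are log2 intensities, so a difference of 1 is a change of 2-fold. Which of a pair of genes has the higher level is not read from them, since probe sets differ in brightness, and a difference of genes within an array is followed only across times and ages. The number of arrays limits the precision, and in a bulk sample fewer cells of a type and less RNA per cell cannot be told apart.

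The arrays resembled each other, with pairwise correlations over all probe sets from 0.963 to 0.997 and array medians from 4.78 to 5.04. The mean of 7 basal keratinocyte markers lay between 11.55 and 11.74 in young and between 11.54 and 11.76 in aged arrays. Krt5 averaged 12.7 in young and aged cells. Krt1 and Krt10, which mark suprabasal cells, averaged 11.6 to 11.7. Of the other suprabasal markers, Sbsn and Krtdap had means above those of 98.8% and 91.4% of all genes. Ivl averaged 6.32 in young and 6.46 in aged cells, Lor 6.98 and 6.23, and Flg, at 3.02 and 3.07, was dim. Krt15, Sox9 and Nfatc1 of the 7 hair follicle bulge markers averaged 9.36 to 12.1. Of the other 4 bulge markers Lhx2 and Tcf7l1 averaged 4.07 to 5.14, and Cd34 and Lgr5, at 3.28 to 3.91, were dim. Markers of fibroblasts and endothelium had list means of at most 3.97 in any array, and those of adipocytes at most 3.92. Other list means were higher. They reached 4.62 for skeletal muscle, 4.83 for melanocytes, 4.99 for Langerhans and myeloid cells, 5.86 for T cells and 6.59 for red blood cells. The brightest marker was Mitf (7.77 to 7.80) for melanocytes, H2-Ab1 (6.97 to 7.07) for myeloid cells and Hba-a1 (7.13 to 7.28) for red blood cells. For T cells it was Thy1, at 9.09 in young and 9.74 in aged cells, with a mean above that of 89.9% of all genes. The other T cell markers averaged 4.05 to 4.83. The clock genes Dbp and Per2 peaked at ZT10.3 and ZT13.7 in young cells, with amplitudes of 1.92 and 1.16, and at ZT10.7 and ZT13.6 in aged cells, with amplitudes of 1.77 and 0.64.

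Mthfd1l was the member with a clear daily course. It encodes the mitochondrial formate-releasing enzyme (10-formyl-tetrahydrofolate synthetase) and lies on chromosome 10, at chr10:3972892-4167081 of GRCm38.p6. In young cells its level rose to a single high time, ZT12, and in aged cells to ZT12 and ZT16. Fitted peak over trough was 2.37-fold in young and 2.93-fold in aged cells.

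The 67 bases just before the annotated span of Mthfd1l (GRCm38.p6, chr10:3972825-3972891, plus strand) are shown because this is the member with the strongest daily course. The 230 bases just before Tyms (chr5:30073646-30073875, minus strand) are shown because it alone among the 8 genes held a searched motif. Capitals mark the E-box CACGTG, the sequence that CLOCK and BMAL1 and the MYC family can bind.
Mthfd1l: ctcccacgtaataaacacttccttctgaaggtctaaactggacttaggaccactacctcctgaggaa
Tyms: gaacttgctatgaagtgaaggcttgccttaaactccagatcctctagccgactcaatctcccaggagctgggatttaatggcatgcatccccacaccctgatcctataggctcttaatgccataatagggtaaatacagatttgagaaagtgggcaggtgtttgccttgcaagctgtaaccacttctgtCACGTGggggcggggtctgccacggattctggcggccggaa
Promoter sequences from RefSeq were found for 8 of 8 genes. Windows of 300 bases, from 250 before to 50 after the start of transcription in RefSeq's promoter table, were searched on both strands for 5 motifs. That start can be of an inner transcript: it lies inside the gene's annotated span for Mthfd1l and Tyms, whose windows before the start had 183 and 20 bases in that span (left off above), and for Mthfd1, Mthfd2 and 1 of 2 starts of Psat1 all 250 bases were inside the gene. These were the E-box CACGTG, the D-box TTATGTAA (PAR bZIP factors), the E2F forms TTTCCCGC and TTTGGCGC, and the ATF4 response element TGATGNAA. The E-box was in the windows of 1 of the 8 genes, at position -61 from the Tyms start of that table, and of 8.09% of 27025 genes. The other motifs were in the windows of none of the 8 genes, and of 1.11%, 1.24%, 0.585% and 4.51% of all genes. A match describes the letters only, and no match says only that these letters are not in the window searched.

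In young cells the 4 Mthfd1l values were 4.56, 4.89, 4.76 and 4.60 at ZT0. They were 5.08, 4.74, 4.72 and 4.89 at ZT4. At ZT8 they were 5.27, 5.14, 5.02 and 5.13. From ZT0 to ZT8 neighbouring times overlapped, although every ZT8 value was above every ZT0 value. At ZT12 the values were 6.40, 6.41, 6.07 and 5.97. At ZT16 they were 5.73, 5.34, 5.55 and 5.22. At ZT20 they were 5.33, 5.57, 5.27 and 4.77. The 4 ZT12 arrays stood above all 20 other young arrays, a separation shown by 0.156% of the genes tested and by Mthfd1l alone among the 7 enzymes. ZT12 was picked after the values were seen, and other genes were examined at ZT12 and not at their own highest time. The share is thus a description. In the order of means, from ZT12 at 6.21 ± 0.23 (SD, n = 4) through ZT16, ZT20, ZT8 and ZT4 to ZT0 at 4.70 ± 0.15, the only neighbours without overlap were ZT12 and ZT16.

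In aged cells the values were 4.59, 4.89, 4.26 and 4.67 at ZT0. They were 5.40, 5.33, 4.82 and 4.72 at ZT4. At ZT8 they were 5.61, 5.25, 5.47 and 5.64. The rise from ZT0 to ZT8 again separated these times without overlap. At ZT12 the values were 5.91, 6.13, 6.44 and 6.59. At ZT16 they were 5.91, 6.17, 6.11 and 6.08. At ZT20 they were 5.52, 5.18, 5.65 and 6.01. ZT12 (6.27 ± 0.30) and ZT16 (6.07 ± 0.11) overlapped, as did every other pair of neighbours in the order ZT12, ZT16, ZT20, ZT8, ZT4, ZT0. All aged ZT12 arrays lay above all aged ZT0 arrays for Mthfd1l, Mthfd1, Shmt1 and Phgdh, 4 of the 7 enzymes, against 2.78% of all genes; this pair of times was picked after the values were seen, so the count is a description.

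**Figure D1:**
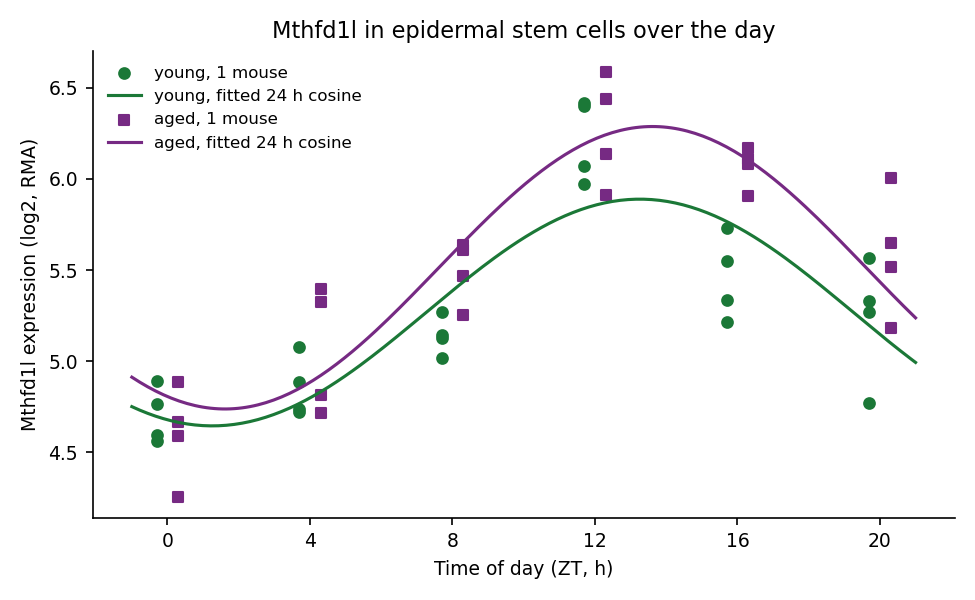
Mthfd1l expression (log2, y axis) against time of day (ZT, hours, x axis) in young (circles) and aged (squares) cells; each point is 1 mouse and each line the fitted 24 h cosine. The 4 young ZT12 points lie at 5.97 to 6.41, above the young curve and above all other young points, and the aged points are high at both ZT12 and ZT16.

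A cosine with a period of 24 h was fitted to every gene within each age with limma, which pools information on the spread over genes. The amplitude is the log2 distance from the mean to the fitted peak. In young cells 6.27% of the genes tested passed an adjusted p of 0.05 (limma F test, Benjamini-Hochberg over 12823 genes), and in aged cells 1.36%. Mthfd1l, 1 of 7 members in each age, was the member that passed. Its amplitude was 0.62 ± 0.08 (SE) with a peak at ZT13.3 ± 0.511 h in young cells (limma adjusted p = 5.23e-06). In aged cells it was 0.77 ± 0.08 with a peak at ZT13.6 ± 0.41 h (limma adjusted p = 3.95e-08). Among all genes tested this amplitude ranked 43 in young and 7 in aged cells. Mthfd1l is represented by 1 probe set, whose mean of 5.39 was above that of 48.1% of all genes, so no other probe set could check it.

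The daily courses of Mthfd1l in the 2 ages were not told apart by the fit. The amplitude in aged cells exceeded that in young cells by 0.15, with a 95% confidence interval from -0.08 to 0.39 (limma adjusted p for the difference in rhythm 0.895). The limma test called 0 of the 12823 genes (0%) for a difference in rhythm, and 982 had an unadjusted p under 0.05. Of the 7 enzymes 0 had an unadjusted p under 0.05 in that test, and their adjusted p ranged from 0.841 to 0.987.

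Mthfd1, at chr12:76254406-76319820, encodes the cytosolic enzyme that puts formate back onto folate and carries it through the next steps. Its young values were 10.0, 9.69, 9.92 and 10.04 at ZT12 and 9.52, 9.44, 9.56 and 9.54 at ZT16. At ZT20 they were 9.71, 9.64, 9.77 and 9.77, so that the ZT16 arrays lay below those of both neighbouring times. In aged cells the low time was ZT0, at 9.64, 9.58, 9.27 and 9.58, and the other 5 times averaged 9.73 to 9.84. The fitted amplitudes were 0.05 ± 0.04 in young and 0.09 ± 0.04 in aged cells (limma adjusted p = 0.737 and 0.637). Its second probe set followed the first with r = 0.80 over the arrays and did not pass in either age (limma adjusted p = 0.516 and 0.27). That probe set was not fitted with time as a factor.

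The difference between Mthfd1l and Mthfd1 within each array was tested directly, since one makes formate in mitochondria and the other uses it in the cytosol. This difference followed a cosine with an amplitude of 0.60 peaking at ZT13.6 in young cells. In aged cells the amplitude was 0.73 with a peak at ZT14.0. Both gave p = 1e-05 in a permutation test of the times (100000 resamples, the smallest p it can give), which asks whether the amplitude is larger than with permuted times. After Benjamini-Hochberg adjustment over the 6 permutation tests of gene pairs this was 3e-05. Since the pair was chosen with the course of Mthfd1l known, this test adds the contrast with Mthfd1 and no independent evidence for Mthfd1l itself. The difference was also 0.21 higher in aged than in young cells (permutation test, p = 0.00879, adjusted p = 0.0132).

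The serine hydroxymethyltransferases take the carbon unit from serine. Shmt1 is the cytosolic form, at chr11:60788897-60811265, and Shmt2 the mitochondrial form, at chr10:127517123-127522444. Group means of Shmt1 ran from 8.16 ± 0.13 (ZT16) to 8.38 ± 0.15 (ZT12) in young cells and from 8.15 ± 0.11 (ZT0) to 8.44 ± 0.13 (ZT12) in aged cells. Those of Shmt2 ran from 7.45 ± 0.07 (ZT8) to 7.69 ± 0.25 (ZT4) in young cells and from 7.29 ± 0.19 (ZT0) to 7.56 ± 0.07 (ZT4) in aged cells. Neither followed a 24 h cosine by the fit: the amplitudes were 0.03 in young and 0.09 in aged cells for Shmt1 (limma adjusted p = 0.94 and 0.694), and 0.03 and 0.07 for Shmt2 (0.936 and 0.775). The difference of Shmt2 and Shmt1 within each array had cosine amplitudes of 0.04 in young and 0.08 in aged cells (permutation test, adjusted p = 0.681 and 0.248). Of the 3 other Shmt1 probe sets none passed, the lowest limma adjusted p being 0.064 in aged cells. They followed the one used with r = 0.45, 0.19 and 0.63 over the arrays, so the values given for Shmt1 rest on the probe set used.

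Tyms, at chr5:30038546-30073645, encodes thymidylate synthase, which makes dTMP with a carbon unit from folate. In young cells it was high at 2 separate times: the values were 8.86, 8.78, 8.41 and 8.60 at ZT12 and 8.76, 8.72, 8.60 and 8.91 at ZT20. Between them, at ZT16, they were 8.29, 8.21, 7.94 and 8.07, without overlap with either. The young ZT0 arrays were the most spread, at 7.87, 7.60, 8.81 and 8.26. In aged cells the values were 8.66, 8.75, 8.63 and 8.42 at ZT12, 8.44, 8.44, 8.46 and 8.62 at ZT16 and 8.29, 8.49, 8.31 and 8.90 at ZT20. These 3 aged times overlapped, and their means of 8.49 to 8.62 were above the means of 8.11 to 8.19 at ZT0, ZT4 and ZT8. The cosine had amplitudes of 0.19 ± 0.08 peaking at ZT16.4 in young and 0.26 ± 0.08 peaking at ZT15.8 in aged cells. Neither passed over all genes (limma adjusted p = 0.323 and 0.247). The course rests on the probe set used. The other Tyms probe sets followed it with r from -0.08 to 0.34 over the arrays, and those with means of 3.65 and 3.41 were dim. None passed the cosine test, the lowest limma adjusted p being 0.247 in young and 0.45 in aged cells. They were not fitted with time as a factor.

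Phgdh, at chr3:98313171-98339969, encodes phosphoglycerate dehydrogenase, the first enzyme of serine synthesis. Its young values were highest at ZT4, at 8.43, 8.23, 8.26 and 8.54, and lowest at ZT20, at 7.77, 8.04, 7.84 and 7.74. In aged cells the 4 arrays at ZT0 were close together, at 7.61, 7.59, 7.71 and 7.53, and those at ZT20 spread from 7.51 to 8.59. The amplitude was 0.20 ± 0.08 with a peak at ZT7.69 in young cells and 0.08 ± 0.08 in aged cells (limma adjusted p = 0.227 and 0.896). The difference of these amplitudes was -0.12, with a 95% confidence interval from -0.35 to 0.10.

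Psat1, at chr19:15905123-15925059, encodes phosphoserine aminotransferase, the next enzyme of serine synthesis. Its young values were 10.48, 10.45, 10.26 and 10.43 at ZT12, 10.01, 9.88, 9.55 and 9.79 at ZT16 and 10.18, 10.02, 10.07 and 10.37 at ZT20. The fall from ZT12 to ZT16 and the higher values at ZT20 were each without overlap. Aged group means stayed between 10.10 and 10.30. The cosine amplitudes were 0.07 ± 0.06 and 0.10 ± 0.06 (limma adjusted p = 0.76 and 0.746). Psat1 is represented by 1 probe set, so no other probe set could check it.

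**Figure D2:**
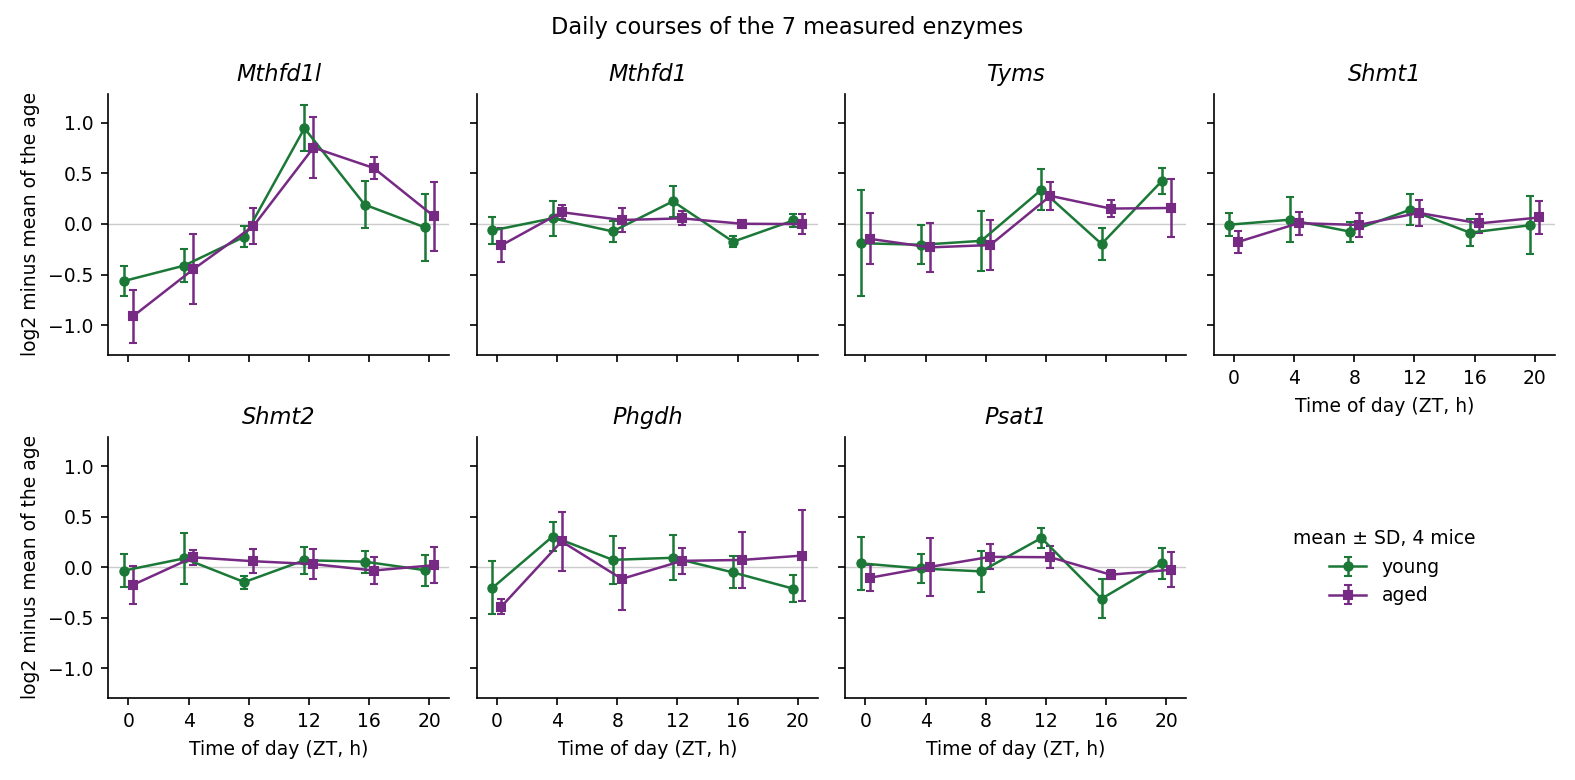
Group mean ± SD of 4 mice for the 7 measured enzymes (log2 minus the mean of the age, y axis) against time of day (ZT, hours, x axis), young in circles and aged in squares. Mthfd1l has the widest course, and the young lines of Mthfd1, Tyms and Psat1 show a high ZT12, a low ZT16 and a higher ZT20.

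A cosine describes a course with 1 peak a day, so time was also fitted as a factor with 6 levels. In young cells 4 of 7 members then passed, against 17.5% of all genes: Mthfd1l (limma adjusted p = 1.34e-07), Tyms (0.0055), Mthfd1 (0.0132) and Psat1 (0.0132). In aged cells 1 of 7 passed, against 8.36% of all genes, and it was Mthfd1l (limma adjusted p = 6.8e-09). The difference between ages passed for 2.59% of all genes and for 0 of the 7 enzymes (limma adjusted p from 0.293 to 0.852, 1 of 7 under 0.05 unadjusted), so the members called in young cells were not shown to differ from aged cells. In young cells all ZT12 arrays lay above all ZT16 arrays for Mthfd1l, Mthfd1, Tyms and Psat1, against 6.28% of all genes. All young ZT20 arrays lay above all ZT16 arrays for Mthfd1, Tyms and Psat1, against 8.66% of all genes. Both counts share the young ZT16 arrays. These 4 arrays also lay below the 4 aged ZT16 arrays for Mthfd1l, Mthfd1, Tyms and Psat1, against 6.24% of all genes. The times were picked after the values were seen. No array of young ZT16 was among the 4 with the lowest array weight. That weight measures scatter within a group, so it cannot show a shift shared by all 4 arrays of a group. Such a shift was not tested.

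**Figure D3:**
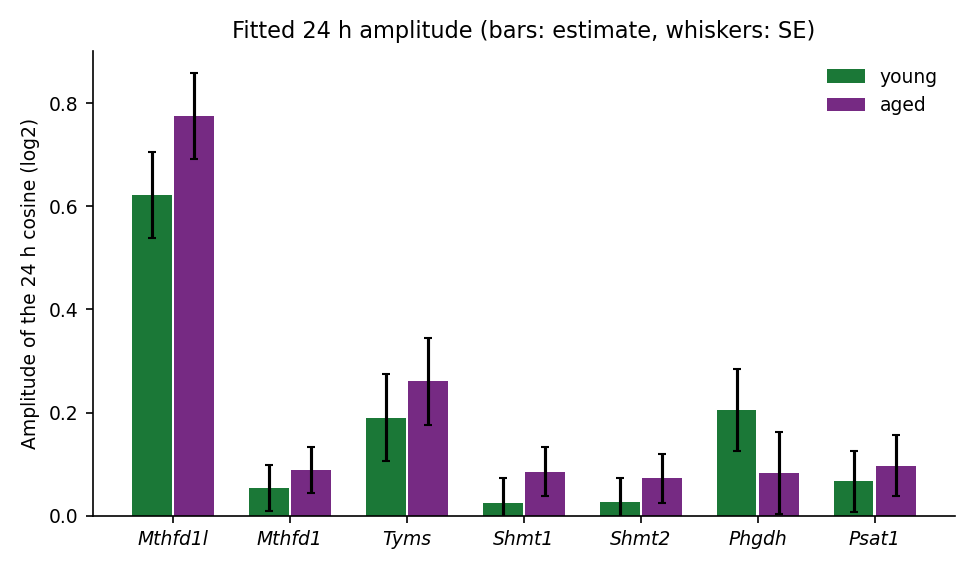
Amplitude of the fitted 24 h cosine (log2, y axis, bars from 0) with its SE for the 7 enzymes (x axis) in young and aged cells. Mthfd1l reaches 0.62 and 0.77, and the other bars lie at 0.03 to 0.26.

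Over the whole day 18.6% of all genes differed in level between the ages, 9.89% higher and 8.73% lower in aged cells. Of the 7 enzymes 1 was higher, Mthfd1l, and 1 lower, Shmt2, both mitochondrial, so the members' share was near the background. Mthfd1l had a mean of 5.51 in aged and 5.27 in young cells, a difference of 0.25 ± 0.08 (SE) or 1.19-fold (95% confidence interval 0.08 to 0.41 on the log2 scale, limma adjusted p = 0.0317). The 24 aged values ran from 4.26 to 6.59 with a median of 5.56, and the 24 young values from 4.56 to 6.41 with a median of 5.18. Shmt2 had a mean of 7.46 in aged and 7.60 in young cells, a difference of -0.14 ± 0.05, so that young cells were 1.10-fold higher (95% confidence interval -0.23 to -0.04, limma adjusted p = 0.0328). The aged Shmt2 values ran from 7.05 to 7.70 with a median of 7.50, and the young from 7.36 to 8.06 with a median of 7.58.

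Both differences were small and close to the threshold. The Mthfd1l call ended when arrays were centred on their median (0.22, limma adjusted p = 0.0705). It also ended, at limma adjusted p of 0.0506 to 0.0526, without any 1 of 6 arrays: aged ZT20 replicate 4, aged ZT4 replicates 1 and 2, young ZT16 replicates 2 and 4 and young ZT20 replicate 4. The Shmt2 call ended, at 0.0507 to 0.0553, without aged ZT0 replicate 3, young ZT12 replicate 2 or young ZT4 replicate 1, and without the 4 arrays of lowest weight (-0.10, limma adjusted p = 0.104). The other Shmt2 probe sets gave -0.10 and -0.10 (limma adjusted p = 0.117 and 0.162).

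The other 5 enzymes did not pass for level with the probe sets used. The differences of aged minus young were 0.04 for Mthfd1, 0.09 for Shmt1, 0.08 for Psat1, -0.06 for Phgdh and 0.01 for Tyms (limma adjusted p from 0.221 to 0.932). The sign of the Tyms value changed with median centring (-0.0098) and with array weights (-0.0153), and that of Phgdh with its other probe set (0.0045). The Tyms probe sets disagreed: another probe set, which had a low mean of 4.66 and r = 0.34 with the one used, gave 0.20 (limma adjusted p = 0.00148), and the mean of all Tyms probe sets gave 0.10, which passed (limma adjusted p = 0.0331). The within-array difference of Shmt2 and Shmt1 was -0.87 ± 0.15 (SD, n = 24) in aged and -0.65 ± 0.17 in young cells. This shift of -0.22 between the ages passed the permutation test of ages within times (2-sided, 100000 resamples, p = 2e-05, adjusted over the 6 tests 4e-05). Of the T cell markers 3 of 6 were higher in aged cells, Thy1 by 0.65, Cd3e by 0.32 and Cd3g by 0.27 (limma adjusted p = 0.000307, 0.0364 and 0.0138), and the mean of the 6 ran from 4.82 to 5.34 in young and from 5.001 to 5.86 in aged arrays. Markers of keratinocytes also differed with age. Over all genes tested 9.89% were higher and 8.73% lower in aged cells, and the marker counts of this paragraph are read against these shares. Of 7 basal markers 2 were higher in aged cells, Itgb4 by 0.16 and Krt14 by 0.07 (limma adjusted p = 0.00777 and 0.0473), and of 6 tested suprabasal markers 1 was lower, Lor, with a difference of -0.75 (0.000358). Of 5 tested bulge markers Krt15 (-0.14) and Lhx2 (-0.29) were lower and Tcf7l1 (0.15) higher (limma adjusted p = 0.00272, 0.0222 and 0.0319). The list means ranged over the arrays from 8.26 to 8.98 in young and 8.32 to 8.82 in aged cells for suprabasal markers, and from 6.52 to 7.05 and 6.36 to 7.11 for bulge markers. The part of these cell type markers in the level results was not tested.

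**Figure D4:**
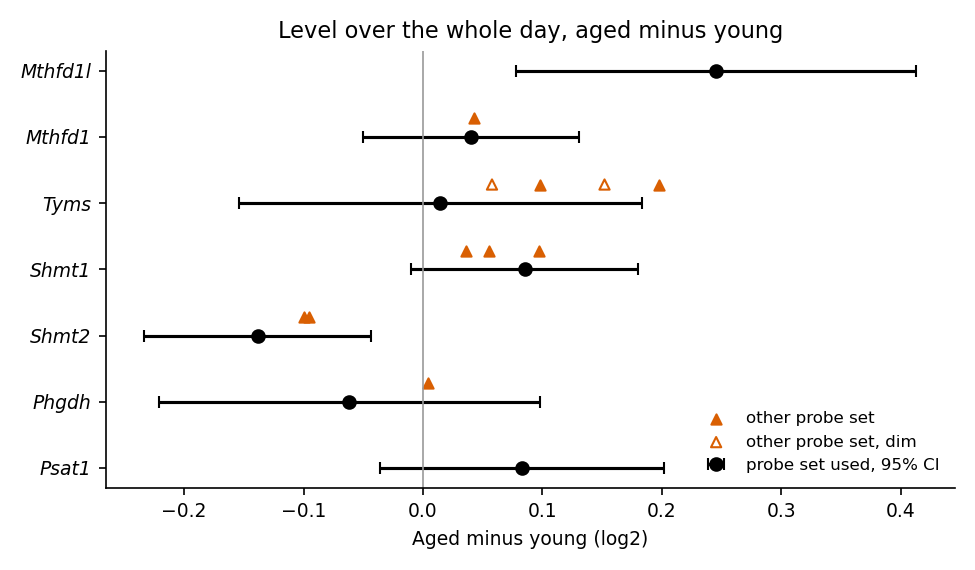
Level over the whole day, aged minus young (log2, x axis), for the 7 enzymes (y axis). Black points are the probe sets used with 95% confidence intervals, and triangles are the other probe sets of the same gene (open where dim). The intervals of Mthfd1l (0.08 to 0.41) and Shmt2 (-0.23 to -0.04) leave out 0, and the Tyms triangles lie to the right of the probe set used.

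Each enzyme was set beside all tested genes by the correlation of the 12 group means, after the mean of each age was removed. These points share their arrays between genes, so the values describe likeness only. The genes named had the highest r among all tested genes, predicted genes and clone names passed over, so a high r follows in part from that choice. Shmt1, Shmt2 and Phgdh passed neither the cosine test nor the test with time as a factor in either age. Mthfd1l was most like Chaf1b (r = 0.978), which loads histones on new DNA, E2f1 (0.955), the transcription factor of the G1/S switch, and Per3 (0.945), a clock gene. Mthfd1 was most like Gart (0.985), a purine synthesis enzyme that uses formyl-folate, Gapdh (0.929) and Ces2g (0.91). Tyms was most like Tubb5 (0.952), a tubulin, Tk1 (0.95), the thymidine kinase of the salvage route, and Rad51c (0.924), a DNA repair gene. Psat1 was most like Traip (0.944), Rfc3 (0.94), part of the loader of the replication clamp, and Dut (0.883), which breaks down dUTP. Shmt1 was most like Nup43 (0.953), a nuclear pore protein, Dnajc9 (0.938) and Mrpl18 (0.92), a mitochondrial ribosomal protein. Shmt2 was most like Poc1a (0.903), Sfrp1 (0.902), a secreted Wnt inhibitor, and Cyhr1 (0.90). Phgdh was most like Ranbp10 (0.90), Colgalt1 (0.876) and Parn (0.873), a ribonuclease that shortens poly(A) tails.

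Among the enzymes themselves the closest pairs were Mthfd1 and Shmt1 (r = 0.863), both cytosolic, and Mthfd1 and Psat1 (0.814). The values for Mthfd1l were 0.688 with Shmt1, 0.681 with Tyms and 0.525 with Mthfd1. Shmt2 and Tyms (0.044) and Tyms and Phgdh (-0.0272) had courses that were hardly related.

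The S phase and replication list holds 25 measured genes, among them Chaf1b, E2f1 and Rfc3, and none of the 8 enzymes. Its mean over the young arrays was 6.89 at ZT0, 7.05 at ZT4, 7.21 at ZT8, 7.66 at ZT12, 7.07 at ZT16 and 7.36 at ZT20. In aged cells it was 6.85, 7.07, 7.47, 7.65, 7.53 and 7.39 at the same times. The young list mean thus also fell at ZT16 between ZT12 and ZT20, where the aged mean fell steadily after ZT12. This fall rests on the same young ZT16 arrays as the counts of enzymes above. A shift shared by those arrays was not tested. The list mean correlated with Mthfd1l at r = 0.923 over the 12 group means, with Tyms at 0.75 and with Shmt1 at 0.722, and with Shmt2 at 0.322 and Phgdh at 0.292. By the limma cosine test 12 of its 25 genes passed in young and 20 in aged cells, against 6.27% and 1.36% of all genes. With time as a factor 21 passed in young and 22 in aged cells, against 17.5% and 8.36%. The cosine test called 0 of the 25 for a difference in rhythm between the ages. With time as a factor the lowest limma adjusted p for that difference was 0.0502 (Pole). The genes that passed the cosine test within an age peaked from ZT10.5 to ZT16.1 in young and from ZT11.4 to ZT14.6 in aged cells. Chaf1b (amplitude 0.37), Gins2 (0.50) and Mcm3 (0.51), a subunit of the replicative helicase, had the smallest p in young cells (limma adjusted p = 0.000968, 0.00165 and 0.00268). E2f1 (0.41), Pole (0.46), the leading strand polymerase, and Cdt1 (0.46), a licensing factor, had the smallest in aged cells (limma adjusted p = 2.92e-05, 0.000533 and 0.000776). The mean of the 16 tested core clock genes correlated with Mthfd1l at r = 0.88 and with the other 6 enzymes at 0.174 to 0.411. The cosine test called 9 of these 16 genes in young cells and 10 of them in aged cells, against the same shares of all genes. The part of either list in the course of Mthfd1l was not tested.

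**Figure D5:**
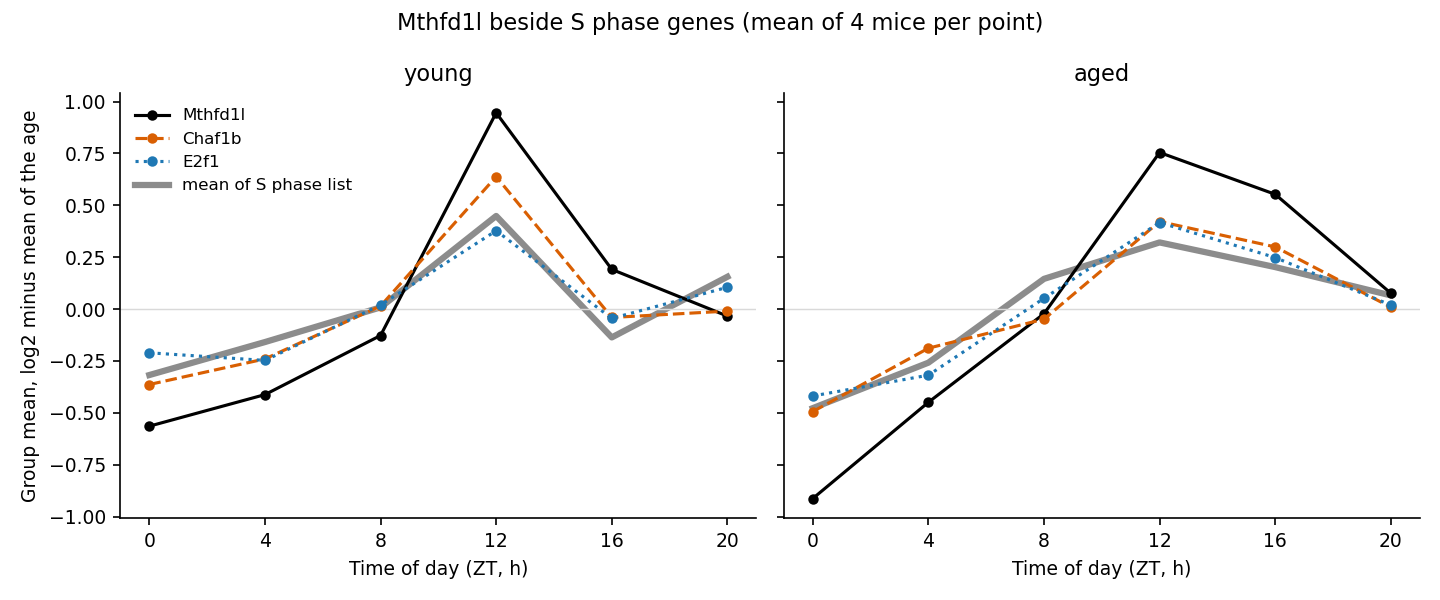
Group means (log2 minus the mean of the age, y axis; 4 mice per point) against time of day (ZT, hours, x axis) for Mthfd1l, Chaf1b and E2f1, with the mean of the 25 S phase genes as a grey line; young on the left, aged on the right. In both ages all 4 lines are highest at ZT12, and the young lines fall more from ZT12 to ZT16 than the aged lines. Chaf1b and E2f1 are drawn because they were most like Mthfd1l over these same group means, so their likeness to it follows from that choice. Both also belong to the S phase list.

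The lists around the enzymes are read against the shares of all genes, for the cosine 6.27% (young) and 1.36% (aged), with time as a factor 17.5% and 8.36%. With time as a factor 4 of 9 serine genes, 5 of 10 methionine cycle and polyamine genes and 3 of 10 purine genes passed in young cells, and 1 of each list in aged cells. The median amplitude of the 7 enzymes was 0.07 in young and 0.09 in aged cells, against 0.09 and 0.08 over all genes tested, while that of the S phase list was 0.28 and 0.41. Of 7 genes for folate uptake, activation and storage, 1 was rhythmic in young cells, Ggh, the hydrolase that trims folate polyglutamates (amplitude 0.42, peak ZT1.03, limma adjusted p = 0.011). Of 6 other folate cycle enzymes, 1 was rhythmic in aged cells, Aldh1l1, which removes formyl-folate (amplitude 0.45, peak ZT5.22, limma adjusted p = 0.00226). The glycine cleavage list had 1 tested gene, Gldc, which passed no test.

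Of 10 de novo purine genes 2 were rhythmic in young cells, Ppat, the first committed enzyme (amplitude 0.29, peak ZT12.1, limma adjusted p = 0.041), and Prps1, which makes the ribose donor (0.20, peak ZT14.1, 0.0202). In aged cells 0 of the 10 passed the limma test, and 2 had an unadjusted p under 0.05. The list mean correlated with Mthfd1 at r = 0.802 and with Mthfd1l at 0.79 over the 12 group means. Of 13 pyrimidine and dTTP genes 1 was rhythmic in young cells, Rrm2, the regulated subunit of ribonucleotide reductase (amplitude 0.45, peak ZT19.0, limma adjusted p = 0.0204), and with time as a factor 8 of 13 passed in young and 2 in aged cells, against 17.5% and 8.36% of all genes. Of 10 methionine cycle and polyamine genes 1 was rhythmic in young cells, Ahcy, which clears S-adenosylhomocysteine (amplitude 0.16, limma adjusted p = 0.0326).

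ATF4 is a transcription factor known to raise Phgdh, Psat1, Shmt2 and Mthfd2 when amino acids are short. Of 13 tested genes of ATF4 and its amino acid targets 0 were rhythmic in young or aged cells by the limma cosine test, with 1 and 3 under 0.05 unadjusted. With time as a factor 0 passed in young cells (5 under 0.05 unadjusted), against 17.5% of all genes, and 4 in aged cells, against 8.36%. The list mean correlated over the 12 group means with Mthfd1l at r = -0.23, with Shmt2 at -0.32, with Phgdh at -0.66 and with Psat1 at 0.05. For level, Asns, the asparagine synthetase, was 0.19 higher and Eif4ebp1, a brake on translation, 0.18 lower in aged cells (limma adjusted p = 0.0228 and 0.00835). Of 8 Myc and growth genes 1 was rhythmic in young cells, Mxd4, a Myc antagonist with a peak at ZT1.00 (limma adjusted p = 0.0171).

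Of 9 tested genes for serine synthesis, transport and use, 3 were higher in aged cells and none lower, against 9.89% and 8.73% of all genes. They were Psph, which makes serine from phosphoserine, by 0.34 ± 0.08 (SE), Slc1a5, a transporter of glutamine and neutral amino acids, by 0.28 ± 0.07, and Sptlc2, which uses serine for sphingolipids, by 0.25 ± 0.09. Their limma adjusted p were 0.00145, 0.00405 and 0.0391, and the median difference of the 9 was 0.02, against -0.00 over all genes. Phgdh and Psat1, the enzymes upstream of Psph, differed by -0.06 and 0.08 and did not pass. In the other lists Mtap, which salvages methionine, was higher by 0.36 and Ahcy lower by 0.14 (limma adjusted p = 9.4e-05 and 0.0134). Gmps, which makes GMP, was higher by 0.19 and Rrm1, the large subunit of ribonucleotide reductase, by 0.15 (limma adjusted p = 0.013 and 0.0376). Of the S phase list 5 of 25 were higher in aged cells and none lower, against 9.89% and 8.73% of all genes. Those with the smallest p, not the largest differences, were Mcm4 (0.43), Mcm10 (0.30) and Rfc4 (0.22). Their limma adjusted p were 2.4e-05, 0.00713 and 0.0102.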

How the data were processed

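Per the labels' protocols, 25 ng of TRizol-extracted RNA were amplified with WTA2 in 17 cycles and labelled with biotin. The authors deposited 1 log2 value per probe set and array, made with RMA (background adjustment, alignment of array distributions, probe summary), per the submitters' processing notes. The sources used here do not say which RMA version was run, whether both ages were normalised together, when arrays were hybridised, what the light schedule was or how pure the cells were. If the ages were normalised apart, levels between them would be affected.

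Of 45141 probe sets 28899 carry 1 gene symbol in the platform annotation, 550 several, and 15692 are unnamed here. The brightest probe set on average stood for each of 17098 genes, and genes in the lowest 25% of means (under 3.96) were left out. Coordinates and promoter sequences are RefSeq's, on GRCm38.p6. limma 3.58.1 in R 4.3.3 (lmFit, eBayes) fitted all 48 arrays with a mean, a cosine and a sine of 24 h for each age. Benjamini-Hochberg adjustment ran over all tested genes with a threshold of 0.05, and errors are SE of the fit unless called SD. Whether the mice of a group were housed or processed apart is not given, so p-values measure the spread between these mice. The scripts were tested on simulated data.

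The members and lists were chosen with earlier results of these data known. Named genes are all members, up to 3 genes per list with the smallest p, the 3 genes most like each member (predicted genes and clone names passed over), and Dbp and Per2. Arrays of the same replicate number had a mean residual correlation of -0.000737 (0.000912 for different numbers), so the numbers showed no pairing of mice on average. A mean over all groups cannot show pairing that holds for some groups only. Alternatives were the dim filter, the probe set, array centring, cyclic loess, array weights, the variance prior, the replicate block, each age alone, time as a factor, a 1.5-fold limit and each array left out. Removal of the 4 arrays of lowest weight was chosen after seeing the data.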

Additional observations from a re-analysis of the deposited data

Results flagged for a closer look

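Of 84 groups of 4 mice (7 enzymes at 12 combinations of age and time), 3 held a mouse far from the other mice of its group. The criterion was a gap to the nearest mouse, as a share of the group's range, above Dixon's critical value at 95%, which chance exceeds in about 1 in 20 groups. The first was Psat1 in aged ZT4 replicate 1, at 9.78 where the other mice of that group had 10.30 to 10.40. The next was Shmt2 in young ZT4 replicate 1, at 8.06 beside 7.55 to 7.59. That array is also among the 4 of lowest weight, and without it the Shmt2 level difference was -0.12 (limma adjusted p = 0.0522). The last was Tyms in aged ZT16 replicate 4, at 8.62 beside 8.44 to 8.46.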

How the results depend on the processing

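The Mthfd1l rhythm was called in both ages under all 58 alternatives that gave it a value, with limma adjusted p up to 8.45e-05 in young and 5.44e-06 in aged cells. Leaving out the lower 50% of gene means (under 5.59) removes Mthfd1l from the test, so that 0 members were rhythmic in either age and 1, Shmt2, was called for level. Time as a factor called 2242 genes and 4 members in young cells, 1072 genes in aged cells and 332 for the difference. With array weights the rhythm counts were 2327 (young), 602 (aged) and 4 (difference), against 804, 174 and 0. Without the 4 arrays of lowest weight 438 genes were rhythmic in aged cells and 1 member, Mthfd1l, was called for level. Median centring left 1 member for level, and a change of at least 1.5 times left 29 genes and 0 members, against 2387 and 2. Leaving out 1 array gave 116 to 314 rhythmic genes in aged cells (314 without aged ZT12 replicate 1), 0 to 4 genes for the difference and 1 to 2 members for level. The Tyms level difference of 0.01 turned to -0.0098 with median centring and -0.0153 with array weights, and ranged from -0.0162 to 0.0413 without single arrays. With the mean of all probe sets it was 0.10 and passed (limma adjusted p = 0.0331), which made 3 members called for level. The other Phgdh probe set turned its level to 0.0045. With a replicate block the calls of members were the same (Mthfd1l limma adjusted p 1.08e-05 in young, 1.43e-07 in aged). The genes called were then 730 and 164 for rhythm by age, 0 for the difference and 2307 for level. The cause of these changes was not tested beyond the number of genes or arrays in the fit. The 6 pair tests kept their call in every alternative run for them, and the level difference of each pair kept its sign. Precision is limited by 4 mice per group and by the low signal of Mthfd1l.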
